A study of Homo sapiens with 9 samples.

Results

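Binding of NKX2-1 and FOXA1 was examined at 4 genes that build the contacts between epithelial cells: the claudin genes CLDN18 and CLDN1, the occludin gene OCLN and the E-cadherin gene CDH1. Members were all peaks that touched 1 of 4 fixed windows of the human genome build hg18, of 180 kb at CLDN18 and CLDN1, 210 kb at OCLN and 230 kb at CDH1. There were 86 such peaks among the 125904 peaks of 5 deposited lists: 5 at CLDN18, 27 at CLDN1, 25 at OCLN and 29 at CDH1. The lists came from chromatin immunoprecipitation with sequencing (ChIP-seq) in 3 human lung adenocarcinoma cell lines, all with an amplified NKX2-1 gene per the series description. NKX2-1 was precipitated with a Bethyl Laboratories antibody from NCI-H3122 (2 lists, here replicates 1 and 2), NCI-H1819 (1 list) and NCI-H2087 (1 list), and FOXA1 with an Abcam antibody from NCI-H3122 (1 list). No treatment or genotype change is labelled between samples, so each line stands only for itself.

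Tight junctions seal the space between neighbouring epithelial cells with strands of claudins, to which occludin and a set of scaffold proteins are added. Adherens junctions lie below them and hold the cells together through E-cadherin, whose cytoplasmic tail binds catenins. NKX2-1 (TTF-1) is a homeodomain factor of lung and thyroid epithelium, and FOXA1 is a forkhead factor that can bind closed chromatin in endodermal tissues. CLDN18 has a lung and a stomach form made from separate starts, and its lung form was described as a target of NKX2-1 in mice. CLDN1 is a barrier claudin of many epithelia. The lists hold no expression values, so neither the epithelial state of the lines nor the levels of the 4 genes could be checked.

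Promoter sequences are shown because the windows differed in whether peaks lay near the gene's position. They come from RefSeq (GRCh38.p14), span 250 bases before to 50 bases after a start, and were found for 3 of the 4 genes; CDH1 had no entry. Capitals mark exact matches to a forkhead motif, TGTTTAC or its reverse complement GTAAACA. An NKX2-1 core motif, CTCAAG or its reverse complement CTTGAG, was also searched on both strands.
CLDN18 first start (chr3:137998566-137998865, GRCh38.p14, plus strand): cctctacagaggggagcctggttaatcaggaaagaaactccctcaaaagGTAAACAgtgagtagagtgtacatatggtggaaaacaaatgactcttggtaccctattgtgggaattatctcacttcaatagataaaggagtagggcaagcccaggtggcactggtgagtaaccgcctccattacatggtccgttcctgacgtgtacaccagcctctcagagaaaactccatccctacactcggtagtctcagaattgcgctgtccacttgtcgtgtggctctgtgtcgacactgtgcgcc
CLDN18 second start (chr3:138009915-138010214, GRCh38.p14, plus strand): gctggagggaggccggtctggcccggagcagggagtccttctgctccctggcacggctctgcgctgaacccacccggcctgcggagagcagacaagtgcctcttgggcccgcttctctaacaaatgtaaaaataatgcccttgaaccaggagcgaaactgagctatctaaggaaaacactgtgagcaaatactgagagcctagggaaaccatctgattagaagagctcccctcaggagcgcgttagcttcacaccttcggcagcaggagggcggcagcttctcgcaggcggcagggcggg
CLDN1 (chr3:190322397-190322696, GRCh38.p14, minus strand): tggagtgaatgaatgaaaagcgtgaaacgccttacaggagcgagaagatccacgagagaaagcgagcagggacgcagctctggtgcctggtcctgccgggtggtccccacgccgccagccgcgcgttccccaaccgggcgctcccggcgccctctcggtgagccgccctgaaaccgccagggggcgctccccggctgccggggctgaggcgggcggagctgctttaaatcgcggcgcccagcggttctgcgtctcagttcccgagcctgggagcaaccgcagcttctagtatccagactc
OCLN first start (chr5:69492297-69492596, GRCh38.p14, plus strand): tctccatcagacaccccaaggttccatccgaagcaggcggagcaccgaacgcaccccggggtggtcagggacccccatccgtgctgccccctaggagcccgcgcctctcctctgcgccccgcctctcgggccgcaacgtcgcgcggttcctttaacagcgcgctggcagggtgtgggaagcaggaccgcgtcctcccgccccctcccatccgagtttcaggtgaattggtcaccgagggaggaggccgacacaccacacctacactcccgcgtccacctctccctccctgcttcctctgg
The first CLDN18 start held 1 forkhead match, and none of the sequences held the NKX2-1 core. A second OCLN start, 243 bp from the first, is not printed and held neither motif. Of 35116 RefSeq promoters of the same length, 3.42% held the forkhead motif and 12.4% the NKX2-1 core. Matches of the 2 motifs can overlap by a single letter at most. The starts of CLDN18 lay 11349 bp apart. These coordinates belong to another build than the peaks and cannot be set beside them. A match describes letters and not a bound site.

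The 5 lists differed in length, and their read depth is not known. H3122 had 7469 NKX2-1 peaks in replicate 1, 48071 in replicate 2 and 42437 FOXA1 peaks. H1819 had 13486 NKX2-1 peaks while H2087 had 14441. Each peak carries the authors' own score, read here as a measure of how far the peak stood above background. Its lowest value was 50 in replicate 1 and 60 in the other lists, and replicate 1 reached no more than 1246, against 3201 to 3217 in the others. Scores are therefore compared only within a list, as the share of that list's peaks that scored lower. Positions of genes are those named with the windows: about 139.200 Mb on chromosome 3 for CLDN18, 191.506 Mb on chromosome 3 for CLDN1, 68.824 Mb on chromosome 5 for OCLN and 67.329 Mb on chromosome 16 for the start of CDH1. They are good to about 1 kb. The windows lie in bands 3q22.3, 3q28, 5q13.2 and 16q22.1 in that order. Distances from them are given with a plus sign toward higher coordinates.

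**Figure D1:**
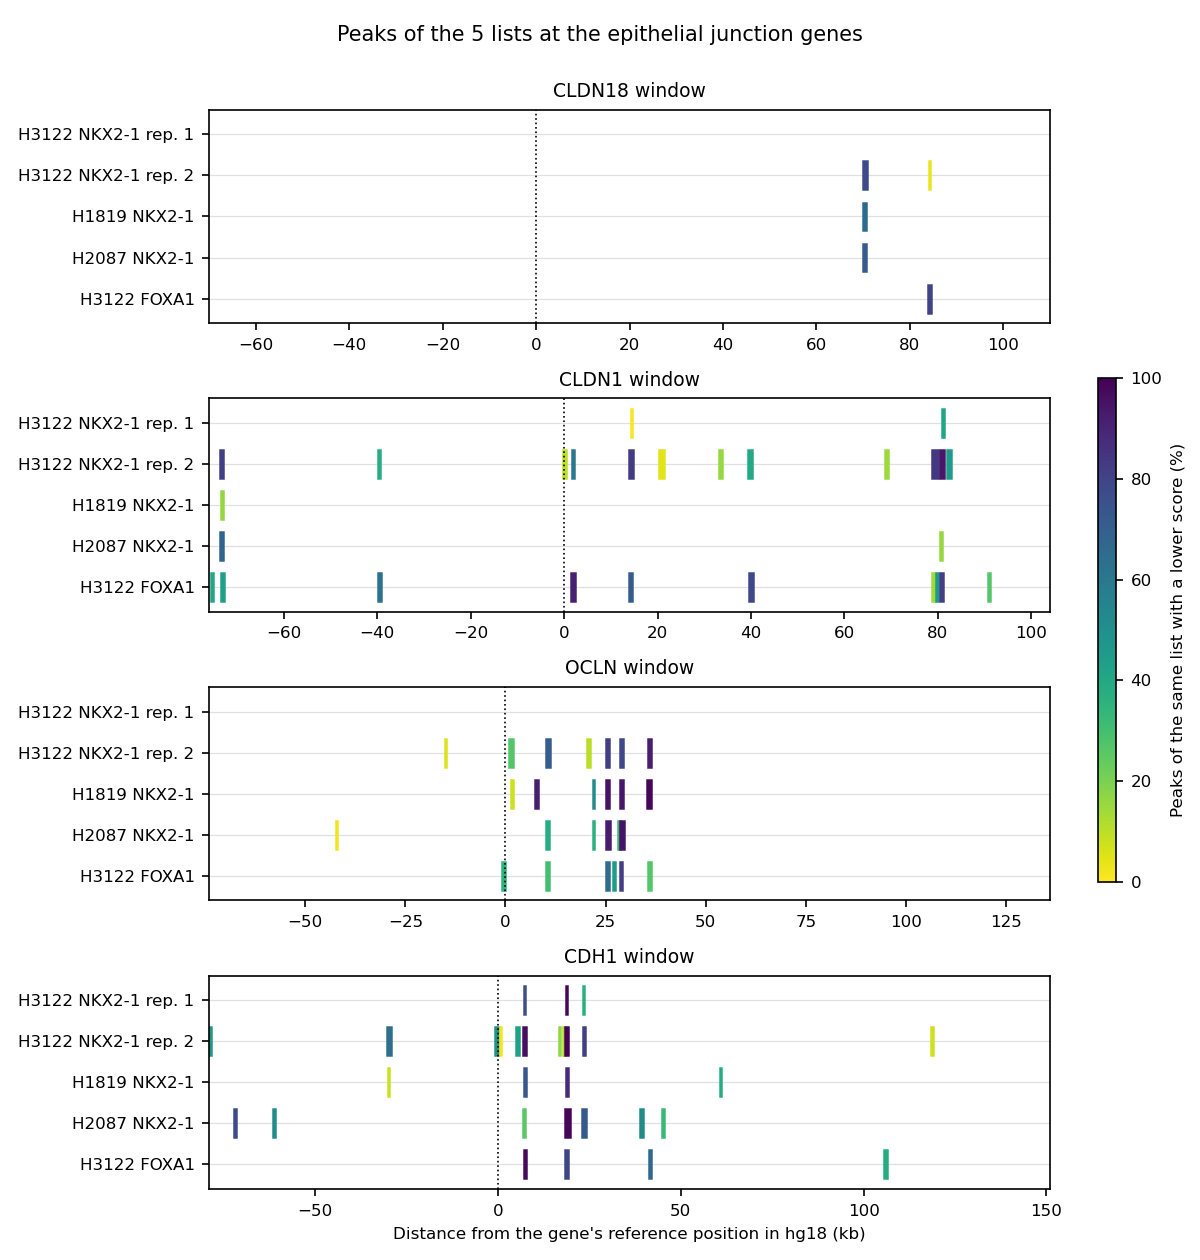
Peaks of the 5 lists (rows) in the 4 windows, by distance from the gene's reference position in kb (dotted line at 0); each bar is 1 peak, drawn slightly wider than its length, and its colour is the percentage of peaks of the same list that scored lower. CLDN18 has no peak closer than 70 kb to its position, whereas OCLN and CDH1 have groups of peaks in several lists between 7 and 36 kb above theirs.

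Across the 4 windows, peaks were denser than the mean of their list in all 5 lists. H3122 replicate 1 had 5 peaks in the windows, 2.58 times its genome mean (exact Poisson 95% interval 0.837 to 6.02). Replicate 2 had 32, or 2.56 times (1.75 to 3.62). H1819 had 12, or 3.43 times (1.77 to 5.99), and H2087 had 16, or 4.27 times (2.44 to 6.93). FOXA1 had 21, or 1.91 times (1.18 to 2.91). The interval of replicate 1 includes 1. The intervals of the 5 lists overlap one another, which does not decide whether lists differ, and differences between lists were not tested. With each list limited to its 7469 best peaks, the mean predicts 1.94 in the windows. There were then 5 peaks left in replicate 1, 4 in replicate 2, 8 in H1819, 9 in H2087 and 2 for FOXA1. The FOXA1 count thus lay near the mean, but no intervals were computed at that length and such small counts are uncertain. The intervals printed above cover counting error only, and neighbouring peaks are not independent. The mean is taken over the whole genome, whereas each window was placed on a gene. Windows at other genes were not counted, so the densities do not set junction genes apart from genes in general.

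The 4 genes contributed very unequally. In replicate 2 the CLDN1 window was the densest with 12 peaks, 4.27 times the mean (2.21 to 7.46), while CLDN18 had 2, or 0.712 times (0.0862 to 2.57). In H1819 the OCLN window led with 6 of the 12 peaks, 6.53 times the mean (2.40 to 14.2), and CLDN1 had 1. H2087 was densest at CDH1 with 7 peaks, 6.49 times (2.61 to 13.4), and at OCLN with 6, or 6.10 times (2.24 to 13.3). FOXA1 peaks were most frequent at CLDN1, with 10, or 4.03 times (1.93 to 7.42), and numbered 6 at OCLN, 4 at CDH1 and 1 at CLDN18. CDH1 had 3 peaks in replicate 1, 11 in replicate 2 and 4 in H1819, and OCLN had 7 in replicate 2. Bins of 200 kb give a rough background of such counts. They count peak midpoints only, whereas the windows count every peak they touch. The windows are longer than a bin at OCLN and CDH1 and shorter at CLDN18 and CLDN1. Bins were cut from full chromosome lengths without removing gaps in the assembly, which makes high counts look rarer. At least 12 replicate 2 peaks were found in 2.90% of 15390 bins of hg18, at least 6 H1819 peaks in 1.79%, at least 7 H2087 peaks in 1.98% and at least 10 FOXA1 peaks in 3.60%. For the other counts, at least 3 replicate 1 peaks were found in 3.70% of bins, at least 7 and 11 replicate 2 peaks in 14.5% and 4.11%, at least 4 H1819 peaks in 6.24%, at least 6 H2087 peaks in 3.32%, and at least 4 and 6 FOXA1 peaks in 30.8% and 15.8%. The CLDN18 window held 1 peak each in H1819, H2087 and FOXA1, and at least 1 was found in 41.1%, 35.6% and 72.2% of bins. It held 0 peaks in replicate 1 and 2 in replicate 2, which equal the median counts per bin in those lists. At least 1 peak was found in 32.0% of bins in replicate 1 and 72.7% in replicate 2. The share of bins with at least 2 replicate 2 peaks was not computed.

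**Figure D2:**
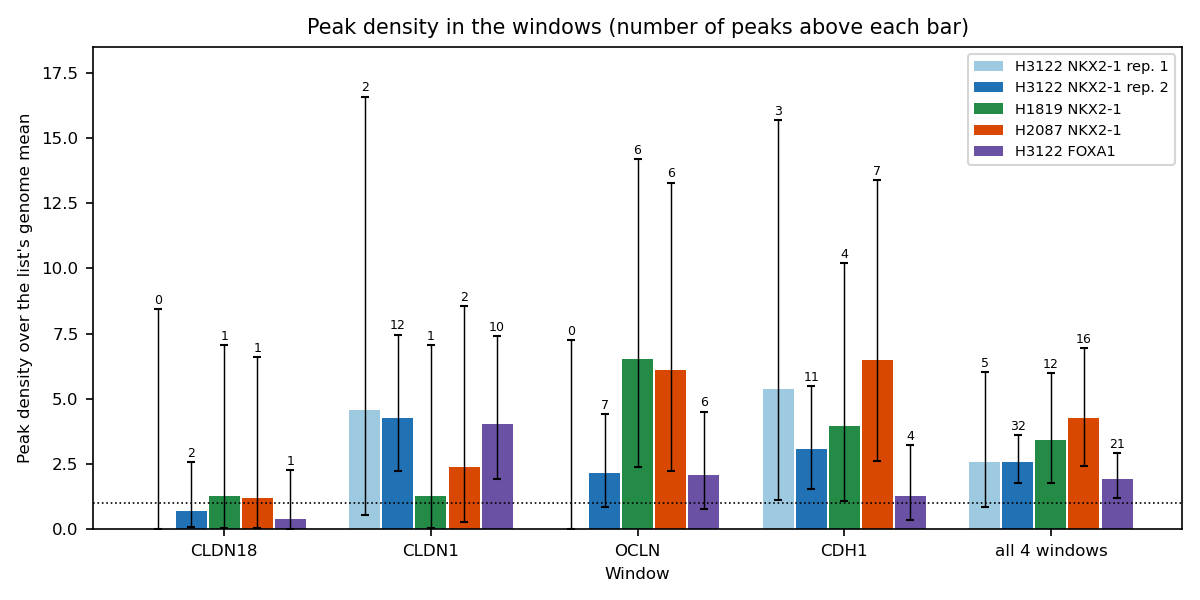
Peak density in each window divided by the genome mean of the same list (vertical axis, dotted line at 1), for the 5 lists; error bars are exact Poisson 95% intervals and the number above each bar is the number of peaks. OCLN stands at 6.53 in H1819 and 6.10 in H2087, and CLDN18 at 0.712 in H3122 NKX2-1 replicate 2 and 0.403 for FOXA1.

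The NKX2-1 peaks of the windows merged into 41 regions, of which 13 were bound in at least 2 of the 3 lines when either H3122 list could stand for that line. That is 31.7% (Wilson 95% interval 19.6 to 47.0), against 23.3% of all 59685 merged regions. A peak in all 3 lines was found in 6 regions, or 14.6% (6.88 to 28.4), against 4.61% of all regions. Each window held at least 1 of the 6, while 13.6% of 200 kb bins held such a region. Those bins were not limited to bins with genes. When both H3122 replicates were required the number was 2, or 4.88% (1.35 to 16.1), against 1.61%, and both lay at CDH1. Of the 28 regions of 1 line, 20 were H3122 regions, 6 H2087 regions and 2 H1819 regions. In the whole genome, 45753 regions were of 1 line: 35439 of H3122, 4342 of H2087 and 5972 of H1819. The lists differ in length, so these counts do not rank the lines. The genes were chosen with results of these lists known, so the counts describe the windows and were not tested against the genome.

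CDH1 encodes E-cadherin, the calcium-dependent adhesion receptor of adherens junctions. Its window held the highest NKX2-1 peak of the 4 windows in both H3122 replicates and in H2087, whereas in H1819 that peak lay at OCLN. Peaks of at least 3 NKX2-1 lists met in 3 regions within 17.0 kb that began 7 kb above the CDH1 start. The region 19 kb above the start (chromosome 16, 67347357 to 67348565) had NKX2-1 peaks in all 4 lists, scoring 285 in H3122 replicate 1, 2093 in replicate 2, 406 in H1819 and 1897 in H2087. Those scores exceeded 98.3%, 99.4%, 88.0% and 98.3% of their lists in that order, so the peak was high in every list and least so in H1819. The FOXA1 peak at this place scored 355, above 79.5% of its list. The region 7 kb above the start (67335907 to 67336698) was also in all 4 NKX2-1 lists, scoring 101 in replicate 1, 1005 in replicate 2, 218 in H1819 and 86.4 in H2087. FOXA1 scored 1435 there, above 97.4% of its list and the highest FOXA1 peak of the 4 windows. The 2 regions thus stood in opposite order for the 2 factors: the region at 19 kb scored above that at 7 kb in 4 of 4 NKX2-1 lists, and below it in the FOXA1 list. That order has no test, since 2 of the 4 lists share a line and FOXA1 has 1 list. The percentage of H2087 peaks scoring lower was 98.3 at 19 kb and 25.5 at 7 kb, the widest gap among the lists.

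The last of the 3 CDH1 regions, 23 kb above the start (67352030 to 67352951), had NKX2-1 peaks in 3 lists and none in H1819. It scored 67.3 in replicate 1, 347 in replicate 2 and 283 in H2087, and no FOXA1 peak lay there. The midpoints of the NKX2-1 peaks within these 3 regions spread over 63 to 260 bp between lists. Another shared region, 30 kb below the start (67298770 to 67299642), scored 190 in replicate 2 and 65.1 in H1819. The start itself lay under a replicate 2 peak from 67328283 to 67329091 with a score of 136, above 49.5% of its list. The nearest peak of each other list was 7 kb from the start. H2087 had 4 regions to itself, at 72 and 61 kb below the start (scores 345 and 157) and at 39 and 45 kb above it (158 and 101). Between the pair above the start lay the highest FOXA1 peak of the window without NKX2-1 (67370285 to 67370788, score 220). RefSeq places CDH3, the P-cadherin gene, next to CDH1 on the low side and TANGO6 on the high side, and the peaks were not assigned to any of these genes.

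OCLN encodes occludin, a membrane protein of tight junction strands that also regulates their permeability. Its window held 6 regions shared by at least 2 lines, all within 35.5 kb from 1 to 36 kb above its position. No peak of H3122 replicate 1 lay in the window. The list mean predicts 0.509 peaks for a window of this length, and the exact Poisson 95% interval of a count of 0 reaches 7.24 times that mean. The region at 26 kb (chromosome 5, 68849064 to 68850075) was in all 3 lines, with scores of 354 in replicate 2, 764 in H1819 and 778 in H2087. The region at 29 kb (68852575 to 68853625) was also in all 3, with 302, 630 and 1106 in the same order. FOXA1 scored 209 and 399 at these regions. The region at 36 kb (68859414 to 68860303) held the highest OCLN peak of replicate 2, at 590, and of H1819, at 1137, while H2087 had no peak there. The 3 regions therefore had the same order of scores in replicate 2 and H1819, highest at 36 kb and lowest at 29 kb, whereas in H2087 the region at 29 kb was highest. FOXA1 scored 86.7 at 36 kb, its lowest of the 3. Within their lists, the H1819 peak at 36 kb exceeded 98.2% and the H2087 peak at 29 kb 95.3% of peaks.

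Closer to the OCLN position the binding was weaker or seen in fewer lines. A region 1 kb above it (68824839 to 68825879) scored 88.5 in replicate 2 and 65.0 in H1819, and FOXA1 had a peak of score 101 just below, from 68823226 to 68823979. The region at 11 kb (68834006 to 68835009) scored 234 in replicate 2, 112 in H2087 and 92.8 for FOXA1. The region at 22 kb (68845819 to 68846200) was the only shared region of the 4 windows without any H3122 peak, with 131 in H1819 and 109 in H2087, and its midpoints lay 23 bp apart. H1819 had a strong peak of its own at 8 kb (68831382 to 68832126, score 511), above 91.5% of its list. The highest FOXA1 peak without NKX2-1 in H3122 was at 27 kb (68850868 to 68851298, score 123), between the 2 regions common to the lines. No list had a peak in the last 99.7 kb of the window, and the peak-free stretch ran on for 1.76 Mb in all. GTF2H2C, which follows OCLN in RefSeq, is a copy of GTF2H2, a gene duplicated in this band. How the authors treated reads that match several places is not stated, and its part in this stretch was not tested. MARVELD2, the gene of the tight junction protein tricellulin, precedes OCLN.

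**Figure D3:**
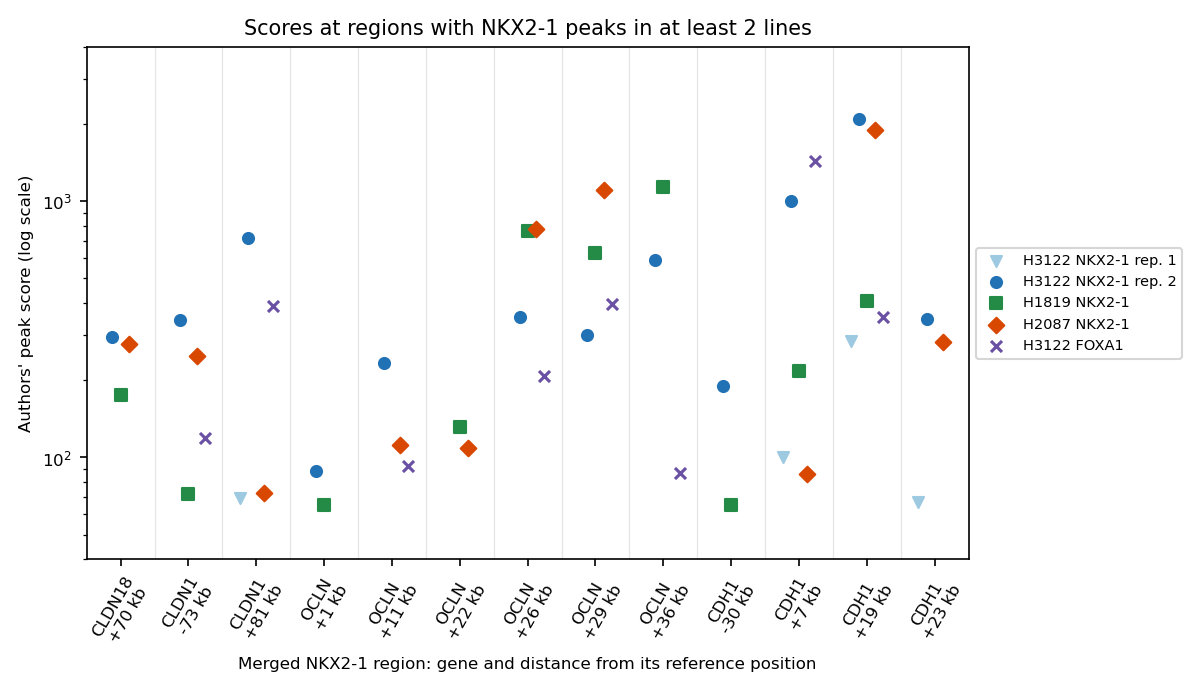
Authors' peak scores (log scale) at the 13 merged NKX2-1 regions bound in at least 2 lines, by gene and distance from its reference position; each symbol is the highest peak of 1 list in the region, and a missing symbol means no peak. NKX2-1 is highest at CDH1 +19 kb in 3 lists, with 285 in H3122 replicate 1, 2093 in replicate 2 and 1897 in H2087, and at OCLN +36 kb in H1819 with 1137, while FOXA1 is highest at CDH1 +7 kb with 1435.

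CLDN1 encodes claudin-1, a sealing claudin. Its window held 12 NKX2-1 peaks in H3122 replicate 2, 2 in replicate 1 and 10 FOXA1 peaks, against 1 NKX2-1 peak in H1819 and 2 in H2087. The H3122 replicate 2 list is the longest, so the counts were set against list means. The density was 4.27 times the mean in replicate 2 and 4.58 in replicate 1, against 1.27 in H1819 and 2.37 in H2087. All 4 intervals are wide and overlap, and a difference between lines was not tested. The region 73 kb below the CLDN1 position (chromosome 3, 191432250 to 191432986) was the only one in all 3 lines, with scores of 344 in replicate 2, 71.8 in H1819 and 249 in H2087, and 119 for FOXA1. It was the highest CLDN1 region in H2087 and the only one in H1819. In both H3122 replicates the highest NKX2-1 peak lay 81 kb above the position (191586346 to 191587319), with scores of 69.5 and 719, and H2087 scored 72.9 there; the replicate 2 score exceeded 93.9% of its list. FOXA1 scored 391 there. The NKX2-1 midpoints in that merged region lay up to 550 bp apart, and the replicate 1 and H2087 peaks did not overlap each other. Another region, 14 kb above the position (191519923 to 191520722), was found in both H3122 replicates, at 50.8 and 364, and in FOXA1 at 254.

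The highest FOXA1 peak at CLDN1 lay 2 kb above the position (191507508 to 191508380), at 724 and above 91.4% of its list, over a replicate 2 NKX2-1 peak of 175. The peak over the position itself (191505835 to 191506357) scored 68.3 in replicate 2 only. RefSeq lists CLDN1 on the minus strand, where a gene starts at its highest coordinate, and the end to which the stated position refers is not given, so the distances here may not be distances from the start. Beside the region at 81 kb lay a replicate 2 peak at 79 kb (191584702 to 191586006, score 382) over 2 FOXA1 peaks of 71.7 and 126, so NKX2-1 and FOXA1 peaks stood side by side over a few kb there. At 40 kb on both sides of the position, replicate 2 peaks of 107 (191466108 to 191466538, below) and 111 (191545353 to 191546290, above) coincided with FOXA1 peaks of 192 and 337. At these places and at 2 kb the FOXA1 peak stood higher in its list than the NKX2-1 peak did in its own, at 62.6%, 78.3% and 91.4%, against 37.5%, 39.8% and 60.4%. At the other 4 places that replicate 2 shared with FOXA1 the order was the opposite: the NKX2-1 peaks exceeded 81.4% of their list at 73 kb below the position and 82.7%, 83.8% and 93.9% at 14, 79 and 81 kb above it, and the highest FOXA1 peaks there 43.2%, 71.1%, 45.8% and 81.5%. Of the 12 replicate 2 peaks in the window, 7 overlapped FOXA1, and the 5 that did not scored between 63.6 and 126. The highest FOXA1 peak without NKX2-1 was at 75 kb below the position (191430343 to 191430820, score 112). CLDN16, the gene of a kidney claudin, overlaps CLDN1 in RefSeq.

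CLDN18 encodes claudin-18, a claudin of lung alveolar and stomach epithelium. No list had a peak near its position: the nearest lay 70 kb above it, and a stretch of 258 kb around the position (chromosome 3, 139011702 to 139269938) held no peak of any list. The region at 70 kb (139269939 to 139270721) was in all 3 lines, with scores of 295 in replicate 2, 175 in H1819 and 276 in H2087, and the midpoints of these peaks lay within 20 bp of each other. These scores exceeded 77.7%, 65.3% and 71.6% of their lists. Replicate 1 had no peak in the window, where its mean predicts 0.436, and its nearest was 596 kb away. FOXA1 had no peak in that region and a single peak at 84 kb (139283880 to 139284481), with a score of 361 over a weak replicate 2 NKX2-1 peak of 62.4. Both lie on the side of DZIP1L and A4GNT, the next genes in RefSeq. The absence of a peak means that none passed the authors' thresholds, which none of the sources used here states.

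FOXA1 was found at 14 of the 41 NKX2-1 regions of the windows, 34.1% (21.6 to 49.5), against 39.7% of all merged regions. With lists of equal length the share in the windows was 6.67%, or 1 of 15. The share of all merged regions was not computed for such lists. Among the 13 regions of at least 2 lines FOXA1 was found at 8, or 61.5%, against 46.7% of such regions in the genome. Among the 28 regions of 1 line it was found at 6, or 21.4%, against 37.6%. The share ranged between windows from 2 of 16 regions at CDH1 to 7 of 12 at CLDN1. Their intervals, 3.50 to 36.0% and 32.0 to 80.7%, overlap slightly, and the difference was not tested. In H3122 itself, 14 of the 32 replicate 2 peaks overlapped FOXA1, 43.8% (28.2 to 60.7), against 47.8% of the whole list. With lists of equal length 1 of 4 overlapped FOXA1, with no share of the whole list computed. At scores of at least 300, a limit chosen after the values were seen, 9 of 10 did, against 75.3% of such peaks; the exception was the CDH1 region at 23 kb. Conversely, 15 of the 21 FOXA1 peaks overlapped a replicate 2 peak, 71.4% (50.0 to 86.2), against 54.5%. All 7 FOXA1 peaks with scores of at least 300 did, against 83.2%. Peaks of H1819 and H2087 lay on an H3122 FOXA1 peak in 6 of 12 and 7 of 16 cases, against 28.7% and 31.6% of their lists, and FOXA1 was not mapped in those lines.

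Agreement between lists was read in the windows and in the whole lists. All 5 replicate 1 peaks were found in replicate 2 (56.6 to 100%), against 81.7% of that list, and 5 of 32 replicate 2 peaks in replicate 1, 15.6% (6.86 to 31.8), against 12.5%. Of the 10 replicate 2 peaks with scores of at least 300, the 3 at CDH1 and 2 of the 4 at CLDN1 were in replicate 1, and none of the 3 at OCLN; in the whole list 37.5% were. H1819 peaks were found in replicate 2 in 9 of 12 cases, 75.0% (46.8 to 91.1), against 53.4%, and H2087 peaks in 9 of 16, 56.2% (33.2 to 76.9), against 67.7%. These intervals include the share of the whole list and are wide. With each list limited to its 7469 best peaks, 3 of 4 replicate 2 peaks were found in replicate 1, or 75.0%. H1819 and H2087 peaks were then found in replicate 2 in 3 of 8 and 1 of 9 cases, 37.5% and 11.1%. Shares over the whole lists were not computed at that length. Between H1819 and H2087 the windows had the larger share: 7 of 12 H1819 peaks were found in H2087, 58.3% (32.0 to 80.7), against 22.8%, and 7 of 16 H2087 peaks in H1819, 43.8% (23.1 to 66.8), against 21.0%. Of those 7 shared regions, 3 lay at OCLN, 2 at CDH1 and 1 each at CLDN1 and CLDN18. These differences were not tested, because the genes were not chosen independently of the lists.

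**Figure D4:**
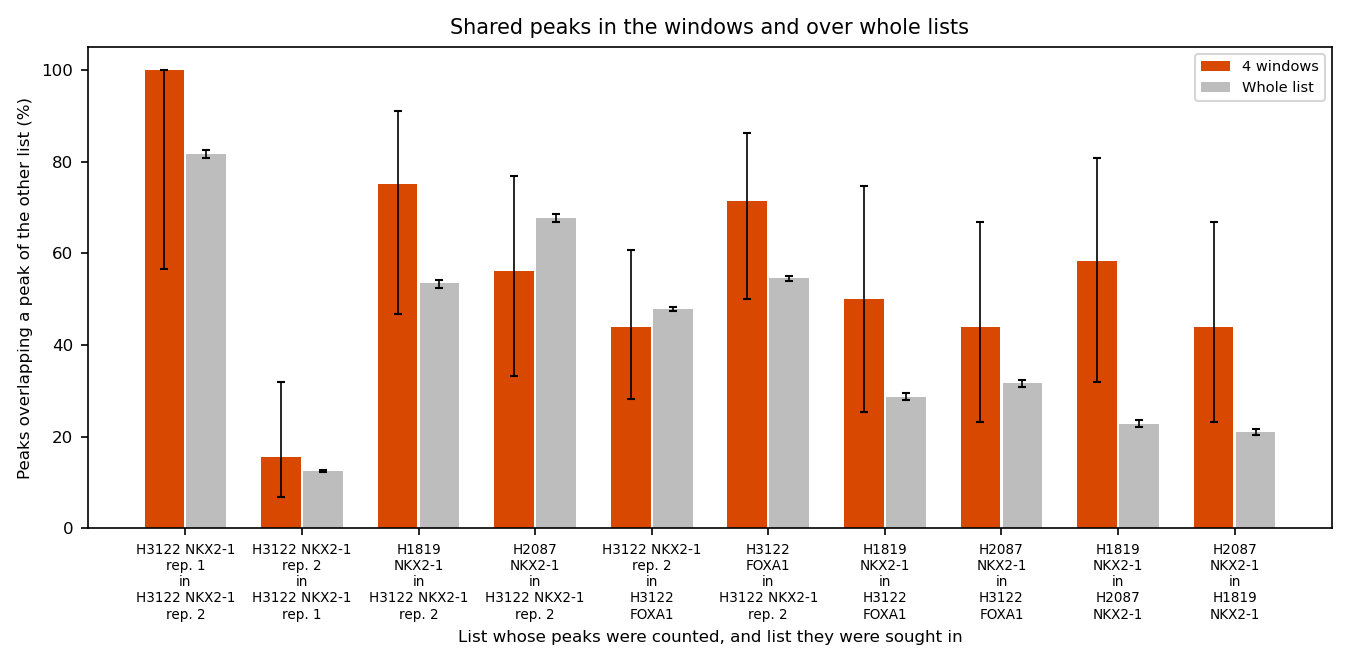
Percentage of peaks of 1 list that overlap a peak of another by at least 1 bp, for the 4 windows together (left bars) and the whole list (right bars), with Wilson 95% intervals that cover counting error only. The window share is 58.3% and the list share 22.8% for H1819 peaks found in H2087, whereas for H3122 replicate 2 peaks found in FOXA1 they are 43.8% and 47.8%.

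The scores of the peaks in the windows were spread over those of their lists. Above the list median stood 2 of 5 peaks in H3122 replicate 1, 14 of 32 in replicate 2, 8 of 12 in H1819, 9 of 16 in H2087 and 11 of 21 for FOXA1. Above at least 90% of their list stood 1, 4, 4, 3 and 2 peaks in the same order. In H1819 all 4 of these were at OCLN, whereas in replicate 2 they were 2 at CDH1 and 1 each at CLDN1 and OCLN. Median peak widths in the windows were 736 bp in replicate 2, 561 bp in H1819, 654 bp in H2087 and 632 bp for FOXA1, against list medians of 656, 479, 592 and 569 bp. The borders of the windows cut through few peaks. The first peak inside the CDH1 window began 270 bp before its border, and at OCLN a replicate 2 peak with a score of 87.2 lay 1.18 kb outside the border. The nearest peaks outside the other borders of the 4 windows were between 13.6 and 1660 kb away. Other junction genes, such as the scaffold genes TJP1 and CGN or CLDN3, CLDN4 and CLDN7, were not analysed here, since no gene annotation of hg18 was used.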

How the data were processed

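ChIP-seq peak lists of 5 libraries from 3 lung adenocarcinoma lines were used; 4 input libraries were not analysed here. Reads were aligned with Bowtie to hg18 and MACS 1.4.0 was used for peaks, both per the submitters' processing notes. Each list belongs to a single library per the labels. Scores of peaks are used as the authors deposited them. No source used here states its scale, which is taken to be the usual MACS one, and peaks were ranked by it within a list only. Depth, thresholds and the input used for each list are not known.

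Peaks were members if they overlapped a window by at least 1 bp, with peaks on unplaced sequence left out. NKX2-1 peaks that overlapped were merged into regions, and H3122 counted as bound where either list, or both where stated, had a peak. Shares have Wilson 95% intervals and densities exact Poisson ones, relative to 3080 Mb of hg18 (GenomeInfoDb 1.38.1), with gaps in the assembly not removed. No test was run: apart from the H3122 pair, whose labels do not say whether they came from separate cultures, there is 1 list per line and factor. The members and lists were chosen with earlier results of these data known. Regions named are those of at least 2 lines or both H3122 replicates, the highest peak of each list in a window and the highest FOXA1 peak without H3122 NKX2-1; a few others named beside them were chosen after their values were seen. Overlap counts were checked on simulated lists with planted sharing. Computations used Python 3.11.15, numpy 2.4.6, scipy 1.17.1, pandas 2.3.3, matplotlib 3.10.9 and R 4.3.3. Alternatives changed the score limit, list length, window length, overlap rule, merging, H3122 lists and the density reference.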

Additional observations from a re-analysis of the deposited data

How the results depend on the processing

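Across 18 results, 84 alternatives were tried: 14 moved the value, 70 did not, and none reversed it. A number of peaks or a share has no direction that could be reversed. A score limit of 60 could remove peaks from replicate 1 only, since the other lists begin at 60. Its 13 alternatives all left the value in place, so the total of 70 overstates how firm the values are. A value had not moved when it stayed within the interval of a share or density, or within 1.5 times a number of peaks, and the intervals are wide at these counts. Limiting each list to its 7469 best peaks moved most, with 9 values moved and 4 not. It left 4 peaks of replicate 2, 9 of H2087 and 2 of FOXA1 in the windows. The share of merged regions with FOXA1 became 6.67%. Replicate 2 peaks then overlapped replicate 1 in 75.0% and FOXA1 in 25.0% of cases, and FOXA1 peaks overlapped replicate 2 in 50.0%. H1819 and H2087 peaks were found in replicate 2 in 37.5% and 11.1% of cases. Shorter lists can hold fewer overlapping peaks, but a percentage can move either way. Of those just listed, only the replicate 2 overlap with replicate 1 rose, from 15.6% in the full lists to 75.0%. Replicate 1 has 7469 peaks and was not shortened. The other percentages fell, and the causes of these shifts were not tested. Scores of at least 100 left 2 peaks of replicate 1 and 20 of replicate 2. Windows shortened by 50 kb on each side left 21 peaks of replicate 2, 10 of H2087 and 12 of FOXA1, and none at CLDN18. Without replicate 1 or without replicate 2 of H3122, the share of regions in all 3 lines was 14.6% and 8.70%, and that with FOXA1 34.1% and 43.5%. No paired analysis was possible because the result comes from no test and only H3122 has more than 1 NKX2-1 list. A count of 0 or 1 in a window says little about binding there, since depth is unknown.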
